A study of Mus musculus with 2 samples.

Results

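The 10 genes described here are targets of canonical Wnt signalling that mark hepatocytes around the central vein of the liver lobule. They were chosen by name (Axin2, Rnf43, Znrf3, Lgr5, Tbx3, Glul, Oat, Rhbg, Cyp2e1 and Lect2) among the 36771 rows of the deposited expression table. Each of the 10 had exactly 1 row, and all 10 reached at least 1 FPKM (fragments relative to the length of the transcript and the depth of the library) in at least 1 of the libraries. The table came from RNA sequencing of liver from BALB/c mice at 5 months of age, with 1 library labelled WT (wild type) and 1 labelled SRSF2-KO (genotype SRSF2-/-). The deletion of Srsf2, a splicing factor of the SR protein family, was, by the design text, specific to the liver, and the libraries were made to compare liver transcripts with and without it. Neither the promoter that drove the deletion nor the number of animals behind each library is stated in the labels. Without replicates, differences could not be tested and have no replicate check.

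In the liver lobule, endothelial cells of the central vein release Wnt ligands and R-spondin, and these keep beta-catenin stable in the nearest hepatocytes. Beta-catenin then acts with TCF/LEF factors on genes of glutamine synthesis, drug metabolism and feedback control. Frizzled receptors and LRP5/6 receive the Wnt signal, LGR receptors bind R-spondin, and the destruction complex around APC and AXIN degrades beta-catenin when no signal arrives. RNF43 and ZNRF3 remove Frizzled from the cell surface, and R-spondin blocks that removal. Since only a thin layer of hepatocytes carries the strongest signal, transcripts such as Glul and Lgr5 come from a small part of the tissue. In RNA from whole liver, fewer cells of a type and less RNA per cell cannot be told apart.

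Depth, estimated from the whole-read steps of low values, was 24400000 fragments in the library labelled SRSF2-KO against 19400000 in the one labelled WT. Srsf2 itself stood at 45.3 FPKM (library labelled SRSF2-KO) against 38.2 FPKM (library labelled WT). This 1.19-fold ratio had a 95% counting interval of 1.10 to 1.29, so the targeted gene went against its label and all directions below are between the labelled libraries. The deleted part of Srsf2 is not recorded in the table. Of the hepatocyte markers Ttr, Apoa1, Hnf4a and Tat, all were abundant in both libraries, at 100.1 FPKM or more, and the library labelled SRSF2-KO held less of all 4, whereas Alb, the albumin gene, was listed at 0 in both. A 0 in this table can therefore be a missing estimate, but none of the 10 genes was at 0.

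The library labelled SRSF2-KO had lower levels of the abundant metabolic genes and Lect2, while the pathway's own regulators, apart from Lgr5, lay close to equal on the deposited scale. Cyp2e1 was the one gene of the 10 that was at least 2-fold lower, and 0 of 10 were at least 2-fold higher. These counts use the log2 ratio, which throughout is log2((SRSF2-KO + 1)/(WT + 1)) of FPKM and understates differences of low genes. Over the 11428 measured rows, those reaching 1 FPKM in either library, 3.22% were at least 2-fold lower and 5.49% at least 2-fold higher. The median log2 ratio of the 10 genes was -0.20, beside -0.04 over all measured rows. Since the columns do not sum to the same total, 3 rescalings were tried: equal totals over all rows (TPM), equal sums outside the 50 most abundant rows, and a median ratio of 1 among rows of at least 5 FPKM in both. The members' median was 0.13, 0.065 and -0.061 under them, beside 0.27, 0.21 and 0.09 for all rows. Fold values below are plain FPKM ratios without the added 1, each with a 95% exact (Clopper-Pearson) interval from estimated reads that covers counting error only. Counts and lists of genes at least 2-fold apart use the log2 ratio, so low genes can pass 2-fold by plain ratio without being counted. On the deposited scale, the intervals of 5 of the 10 genes lay below equality, that of 1 above it and those of 4 included it. This tally depends on the scaling, since TPM, equal-sum and median ratio rescaling multiply every SRSF2-KO level by 1.27, 1.22 and 1.11. After TPM rescaling 3 genes were lower, 6 higher and 1 included equality. With equal sums the counts were 3, 5 and 2, and with the median ratio 5, 3 and 2. Intervals were not tallied over all rows, so these counts have no background share and are not a result about the members. Intervals also narrow as reads rise, so those of abundant genes can exclude equality at smaller differences. Cyp2e1, Lect2 and Oat were lower and Rhbg higher under all of these scalings, and the calls of the other 6 genes changed with at least 1 of them. Intervals given below, for pathway genes too, are on the deposited scale.

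**Figure D1:**
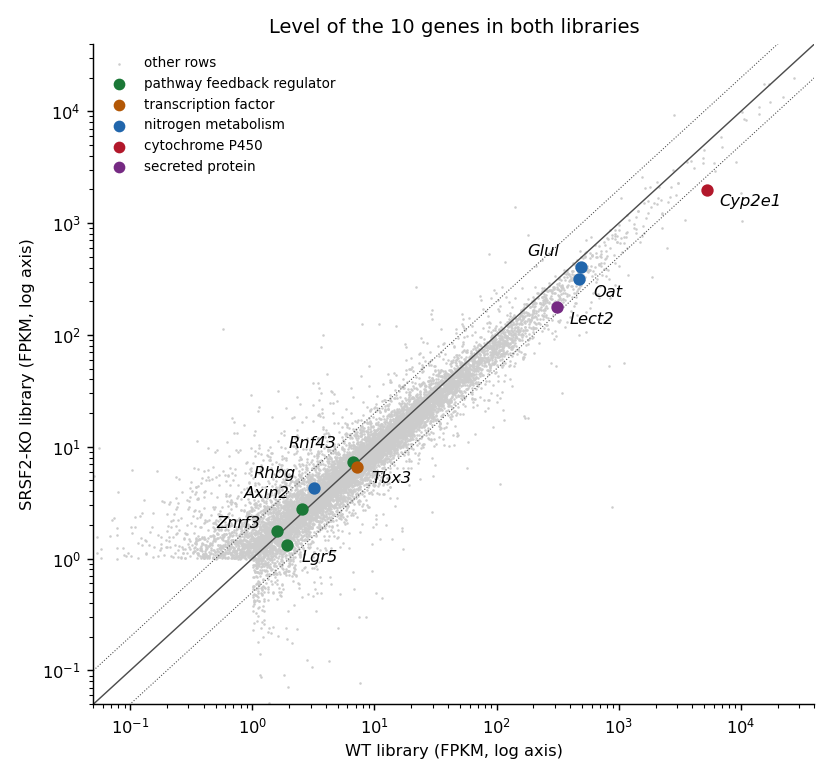
FPKM in the library labelled WT (x axis) and in the library labelled SRSF2-KO (y axis), both on log axes, with 1 point per gene row. Coloured points are the 10 genes by role, grey points are the other rows with at least 0.05 FPKM in both libraries (11304 of 11428 measured rows plotted), the solid line is equality and the dotted lines 2-fold. Cyp2e1, at 5250 and 1987 FPKM, lies outside the lower dotted line, and the other 9 lie between the dotted lines.

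The 4 feedback regulators were expressed at low levels in both libraries, between 1.31 and 7.27 FPKM. Axin2, the beta-catenin-induced scaffold that rebuilds the destruction complex, stood at 2.78 FPKM (library labelled SRSF2-KO) against 2.53 FPKM (library labelled WT). Its ratio was 1.10 with a counting interval of 0.910 to 1.32. The interval includes equality, and Axin2 is the member used most widely as a readout of the pathway in many tissues.

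Rnf43 stood at 7.27 against 6.70 FPKM (SRSF2-KO against WT), a ratio of 1.08 with an interval of 0.967 to 1.22. Znrf3 stood at 1.75 against 1.61 FPKM, a ratio of 1.09 with an interval of 0.898 to 1.32. These ubiquitin ligases act on the same receptors, and both intervals included equality on the deposited scale. Both lay above equality after TPM and equal-sum rescaling, and that of Rnf43 also with the median ratio. Axin2 lay above equality under all 3 rescalings. The level of Rnf43 was 4.16 times that of Znrf3 in the library labelled SRSF2-KO and 4.17 times in the library labelled WT, so the balance of this pair was nearly the same in both. The ratios of Axin2, Rnf43 and Znrf3 lay above 0 on the log2 scale under all rescalings tried, and 0.06 to 0.16 above the median of all rows under each. Of rows whose higher library held 1 to 10 FPKM, 54.2%, 54.7% and 51.9% had lower log2 ratios than Axin2, Rnf43 and Znrf3. Each was thus near the middle of rows at its level.

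Lgr5, a receptor for R-spondin and the marker of the hepatocytes nearest the central vein, was the feedback regulator whose interval lay below equality on the deposited scale and with the median ratio, but included equality after TPM and equal-sum rescaling. It stood at 1.31 FPKM (library labelled SRSF2-KO) against 1.92 FPKM (library labelled WT). It was 1.47-fold lower, with an interval of 1.17 to 1.84, which rests on an estimated 145 and 169 reads. Among rows whose higher library held 1 to 10 FPKM, 13.8% had a lower log2 ratio than Lgr5. A difference of this size was thus not rare in that range of levels.

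Tbx3, a T-box transcription repressor that beta-catenin induces in liver, stood at 6.58 FPKM (library labelled SRSF2-KO) against 7.20 FPKM (library labelled WT). Its ratio was 0.914 with an interval of 0.822 to 1.02. Equality lies inside that interval, and its log2 ratio of -0.11 turned positive under all 3 rescalings, at 0.20, 0.14 and 0.02. Its interval lay above equality after the TPM and equal-sum ones.

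**Figure D2:**
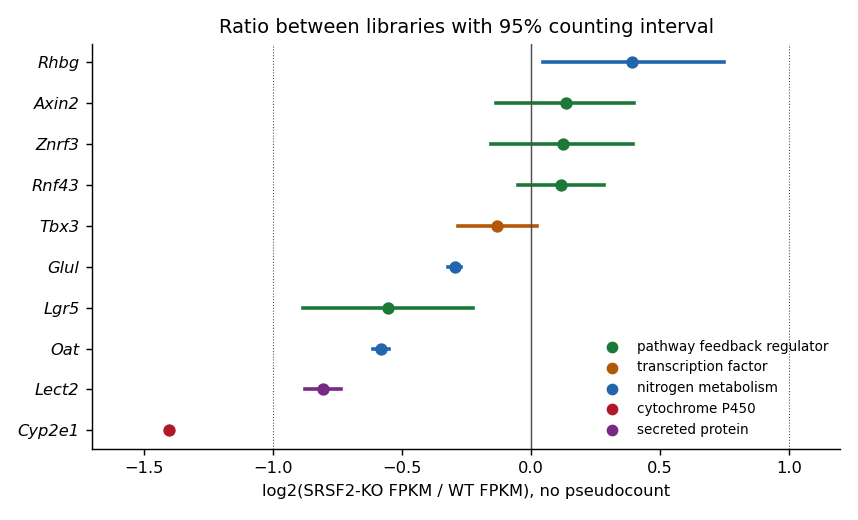
Plain log2 ratio of FPKM, SRSF2-KO against WT (x axis), for each of the 10 genes, coloured by role. Bars are 95% exact counting intervals from estimated reads (for Cyp2e1 narrower than its point), the solid line is equality and the dotted lines 2-fold. The bars of Cyp2e1, Lect2, Oat, Lgr5 and Glul lie left of equality and that of Rhbg right of it, on the deposited scale.

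The 3 genes of nitrogen handling did not move together. Glul codes for glutamine synthetase, which traps the ammonia that escapes the urea cycle and is the classic marker of the innermost pericentral hepatocytes. It stood at 403 FPKM (library labelled SRSF2-KO) against 494 FPKM (library labelled WT), which is 1.23-fold lower with an interval of 1.21 to 1.25. The difference was small: the log2 ratio of -0.29 was -0.0085 once sums outside the 50 most abundant rows were made equal and 0.053 after TPM rescaling, where its sign flips. Its interval included equality in the former case and lay above it in the latter.

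Near-identical copies of Glul could take up some of its reads. The processed pseudogene Glns-ps1 matched its transcript at 96.8% identity over 1126 bases, and was listed at 3.28 FPKM (library labelled SRSF2-KO) against 0 FPKM (library labelled WT). These values are far below those of Glul itself, but how reads matching both were assigned is not known. Further processed pseudogenes of Glul, at 93.0% identity over 1122 bases and 90.5% over 597 bases, were not listed.

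Oat, the ornithine aminotransferase that channels ornithine towards glutamate beside glutamine synthetase, stood at 314 FPKM (library labelled SRSF2-KO) against 470 FPKM (library labelled WT). It was 1.50-fold lower, with an interval of 1.46 to 1.53, and lay below 0 under all rescalings tried. Glul and Oat were nearly level in the library labelled WT (1.05 times as much Glul as Oat) and further apart in the other (1.28 times).

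Rhbg, a membrane transporter of ammonia, was the one member whose interval lay above equality on the deposited scale. It stayed there under the 3 rescalings, where 2 to 5 other members joined it. It stood at 4.24 FPKM (library labelled SRSF2-KO) against 3.22 FPKM (library labelled WT), 1.31-fold higher with an interval of 1.03 to 1.68. The estimate rests on 182 and 110 reads. Among rows whose higher library held 1 to 10 FPKM, 73.3% had a lower log2 ratio than Rhbg. A higher ratio than that of Rhbg was thus not rare in that range of levels. In the GENCODE M21 annotation another gene model, Gm38392, shares 1190 of the 1937 exonic bases of Rhbg on the same strand, so its value may include reads of that model.

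Of 19 other genes of glutamine, ammonia and ornithine metabolism, 14 were measured and 13 of these lay below 0, with a median log2 ratio of -0.54. Over all measured rows 53.9% lay below 0, and 84.2% of those reaching 100 FPKM, whose median was -0.40. The list held 9 genes at that level, all 9 below 0. Gls2, the liver glutaminase of periportal cells, stood at 116 against 205 FPKM (SRSF2-KO against WT), and Slc38a3, a glutamine transporter of hepatocytes, at 441 against 927 FPKM. Slc1a2, a glutamate transporter of pericentral hepatocytes, was lowest at 23.2 against 55.4 FPKM. The neutral amino acid transporter gene Slc1a4 was the one above 0, at 3.56 against 1.27 FPKM, and Glud1, the glutamate dehydrogenase gene, came next at 280 against 322 FPKM. Of the 14, 2 were at least 2-fold lower and 1 at least 2-fold higher.

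Cyp2e1 codes for a cytochrome P450 that oxidises ethanol and activates paracetamol, and it was the most abundant of the 10 genes in both libraries. It stood at 1987 FPKM (library labelled SRSF2-KO) against 5250 FPKM (library labelled WT). This was 2.64-fold lower with an interval of 2.62 to 2.66, and its log2 ratio stayed at -1.05 or lower under every setting tried. By level it held rank 18 among the measured rows in the library labelled WT and rank 33 in the other. The gap between Cyp2e1 and Glul shrank with it, from 10.6-fold to 4.93-fold.

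Lect2, which codes for a secreted hepatokine, stood at 177 FPKM (library labelled SRSF2-KO) against 309 FPKM (library labelled WT). It was 1.75-fold lower with an interval of 1.67 to 1.84, and remained below 0 under every setting tried. Its place after Cyp2e1 made it the lowest of the other 9.

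RefSeq promoters (build GRCm38.p6, 250 bases before to 50 after the start) were at hand for 6 of the 10 genes, 7 promoters in all, and are shown for the pair with the lowest ratios, Cyp2e1 and Lect2, and for Glul and Axin2 as the classic metabolic and feedback targets. Capitals mark a TCF/LEF core, searched as CTTTGAA or CTTTGAT on both strands, and each sequence runs 5′ to 3′ on the strand of its gene.
Cyp2e1 (chr7:140763569-140763868, plus strand): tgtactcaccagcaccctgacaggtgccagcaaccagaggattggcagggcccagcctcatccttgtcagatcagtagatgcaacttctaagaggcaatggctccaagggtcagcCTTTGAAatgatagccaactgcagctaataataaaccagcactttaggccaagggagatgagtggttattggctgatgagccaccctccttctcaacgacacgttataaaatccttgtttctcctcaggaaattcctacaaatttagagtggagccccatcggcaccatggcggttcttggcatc
Lect2 (chr13:56548489-56548788, minus strand): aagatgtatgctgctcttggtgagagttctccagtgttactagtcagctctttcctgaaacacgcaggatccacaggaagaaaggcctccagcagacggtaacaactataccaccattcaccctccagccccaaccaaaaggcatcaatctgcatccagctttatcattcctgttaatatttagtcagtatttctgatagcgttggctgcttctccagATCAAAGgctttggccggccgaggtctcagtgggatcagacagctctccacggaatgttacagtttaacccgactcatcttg
Glul (chr1:153899679-153899978, plus strand): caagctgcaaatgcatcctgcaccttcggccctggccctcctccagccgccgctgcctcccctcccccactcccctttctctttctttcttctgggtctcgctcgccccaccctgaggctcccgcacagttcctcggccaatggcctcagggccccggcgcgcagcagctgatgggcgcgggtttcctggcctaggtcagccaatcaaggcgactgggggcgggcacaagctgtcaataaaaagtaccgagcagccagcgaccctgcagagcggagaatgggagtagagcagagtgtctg
Axin2 (chr11:108920099-108920398, plus strand): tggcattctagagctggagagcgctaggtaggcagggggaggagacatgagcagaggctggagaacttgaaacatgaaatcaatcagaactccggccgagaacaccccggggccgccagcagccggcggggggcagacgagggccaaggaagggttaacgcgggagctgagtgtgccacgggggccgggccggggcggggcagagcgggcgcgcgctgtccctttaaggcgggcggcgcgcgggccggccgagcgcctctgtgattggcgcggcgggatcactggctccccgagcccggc

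Of the 7 promoters, 2 held the core: that of Cyp2e1 had CTTTGAA from 135 bases before the start, and that of Lect2 had ATCAAAG, which is CTTTGAT on the other strand, from 32 bases before it. The same letters were found in 8.65% of the 32851 promoters of equal length in the RefSeq table. The windows of Glul, Axin2, Oat and Rnf43 (2 starts) held no such run, which says only that these letters are not in this window. GC content was 49.7% for Cyp2e1 and 48.0% for Lect2, beside 64.3% for Glul, 61.7% for Oat and 70.0% for Axin2. The 2 promoters of Rnf43, which lack the core, were lower still at 46.7% and 44.3%. Over all promoters of the RefSeq table the median was 52.7%. No promoter is shown for Lgr5, Tbx3, Rhbg and Znrf3.

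The order of levels within the 10 genes was similar in both libraries: Cyp2e1, Glul, Oat and Lect2 came first, and the other 6 stayed under 10 FPKM. In the library labelled SRSF2-KO these 6 ran from Rnf43 (7.27 FPKM) through Tbx3, Rhbg, Axin2 and Znrf3 to Lgr5 (1.31 FPKM). In the library labelled WT they ran from Tbx3 (7.20 FPKM) through Rnf43, Rhbg, Axin2 and Lgr5 to Znrf3 (1.61 FPKM). Rnf43 and Tbx3 exchanged places between the libraries, as did Lgr5 and Znrf3. The 95% Poisson intervals of Rnf43 and Tbx3 overlapped in both libraries, and so did those of Rhbg and Axin2, Axin2 and Lgr5, and Lgr5 and Znrf3 in the library labelled WT.

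The abundant members shared their direction with most abundant transcripts of these libraries. Of 833 rows reaching 100 FPKM in either library, 84.2% lay below 0, with a median log2 ratio of -0.40, and 12.2% were at least 2-fold lower and 4.08% at least 2-fold higher. Of the 4 members at this level, 1 was at least 2-fold lower. Among those rows 5.64% had a lower log2 ratio than Cyp2e1, 18.4% than Lect2, 33.5% than Oat and 61.1% than Glul. Glul was therefore less reduced than the median abundant row, and Cyp2e1 stood near the lower end. Rows whose higher library held 1 to 10 FPKM, the range of the other 6 members, had a median log2 ratio of 0.06, and 1.69% of them were at least 2-fold lower and 6.25% at least 2-fold higher, beside 0 of those 6 members.

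The machinery that carries the Wnt signal held no measured gene at least 2-fold apart on the log2 ratio, which understates differences of low genes. By plain FPKM ratio, the measured genes Wnt4 and Frzb, both given below, were more than 2-fold higher. Over all measured rows 3.22% were at least 2-fold lower and 5.49% at least 2-fold higher, so most rows lay within 2-fold as well. All 14 measured genes of the cytoplasmic and destruction complex list lay within 2-fold, with a median log2 ratio of -0.01 that was 0.31, 0.25 and 0.13 under the rescalings. Ctnnb1, which codes for beta-catenin, stood at 51.9 FPKM (library labelled SRSF2-KO) against 53.0 FPKM (library labelled WT), a ratio of 0.980 with an interval of 0.934 to 1.03. Apc, the core of the destruction complex, stood at 3.48 against 3.80 FPKM. The lowest of this list was the tankyrase gene Tnks2 (7.77 against 10.7 FPKM), followed by its relative Tnks (2.08 against 2.50 FPKM). The highest were the dishevelled genes Dvl2 (1.45 against 0.897 FPKM) and Dvl1 (13.05 against 10.35 FPKM).

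All 15 measured nuclear partners also lay within 2-fold, as did most measured rows, with a median log2 ratio of 0.01. Tcf7l2, the main TCF factor of adult liver, stood at 4.42 FPKM (library labelled SRSF2-KO) against 5.39 FPKM (library labelled WT), a ratio of 0.820 with an interval of 0.700 to 0.961. The corepressor gene Tle1 was lowest (14.1 against 19.7 FPKM) and its relatives Tle2 (3.41 against 2.31 FPKM) and Tle4 (3.19 against 2.31 FPKM) highest. Ctnnbip1, whose product blocks the binding of beta-catenin to TCF, was second lowest at 2.35 against 2.95 FPKM.

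Receptors differed in both directions, 5 of 9 measured genes below 0 and 4 above, beside 53.9% of all measured rows below 0. As with most rows, 0 genes were at least 2-fold apart. The median log2 ratio of -0.10 was 0.22 after TPM and 0.16 after equal-sum rescaling. The coreceptor genes Lrp5 and Lrp6 went opposite ways: Lrp5 stood at 16.7 against 10.7 FPKM, a ratio of 1.56 (interval 1.44 to 1.68), and Lrp6 at 7.66 against 11.1 FPKM, a ratio of 0.689 (interval 0.645 to 0.735). Lgr4, the R-spondin receptor found across the lobule, stood at 8.35 against 12.7 FPKM, a ratio of 0.658 (interval 0.604 to 0.716). That ratio is close to the 0.682 of its relative Lgr5. Fzd4, which endothelial cells also express, was lowest at 2.91 against 5.22 FPKM. The third R-spondin receptor gene, Lgr6, was hardly detected (0.0218 against 0.0276 FPKM), and Fzd7 stood at 3.66 against 2.50 FPKM.

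The ligands were scarce. Of 19 Wnt genes 3 were measured, and 5 were listed at 0 in both libraries. Wnt2, released by endothelial cells around the central vein, stood at 0.841 FPKM (library labelled SRSF2-KO) against 1.39 FPKM (library labelled WT), a ratio of 0.605 with an interval of 0.401 to 0.925. Wnt9b, the other main ligand of these cells, stood at 0.674 against 0.323 FPKM, both below 1 FPKM, with a ratio of 2.09 (interval 1.33 to 3.39). Rspo3, the R-spondin of the central vein, stood at 2.66 against 2.14 FPKM, a ratio of 1.25 (interval 0.991 to 1.59). Wnt4, another ligand, had the highest log2 ratio of those measured, at 0.73, and stood at 1.11 against 0.272 FPKM, a plain ratio of 4.09 (interval 2.57 to 6.93). Wnt5b stood at 1.15 against 0.965 FPKM. Among the genes of Wnt secretion, Porcn stood at 0.914 against 1.19 FPKM and Wls at 1.40 against 1.22 FPKM.

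Of 18 pathway inhibitors 5 were measured, and all 5 lay within 2-fold on the log2 ratio, as did most measured rows. Notum, a Wnt-inactivating enzyme that is itself a pericentral Wnt target, stood at 8.90 FPKM (library labelled SRSF2-KO) against 11.5 FPKM (library labelled WT). Its ratio was 0.775 with an interval of 0.676 to 0.888. Frzb, a secreted Frizzled-related protein, was highest at 1.37 against 0.338 FPKM, a plain ratio of 4.04 (interval 2.52 to 7.17). Dkk3 was next at 1.27 against 0.651 FPKM.

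Wnt targets known from other settings formed a list that shares genes with those of inhibitors, nuclear partners and bile duct markers. Of 9 measured, 6 lay above 0 and 3 (33.3%) below, with a median log2 ratio of 0.34. Below 0 were 53.9% of all measured rows and 43.4% of those whose higher library held 1 to 10 FPKM. At least 2-fold higher were 2 of the 9, beside 5.49% of all measured rows and 6.25% of those at 1 to 10 FPKM. The 2 genes were Ccnd1, the gene of cyclin D1 (21.7 against 9.29 FPKM, SRSF2-KO against WT), and Sox9, a transcription factor of bile duct and progenitor cells (4.80 against 1.83 FPKM). Myc stood at 3.34 against 1.39 FPKM, whereas the direct feedback target genes Sp5 (1.56 against 1.94 FPKM) and Nkd1 (1.30 against 1.50 FPKM) had intervals that include equality. Notum, given above, was the lowest of this list, and its interval lay below equality.

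**Figure D3:**
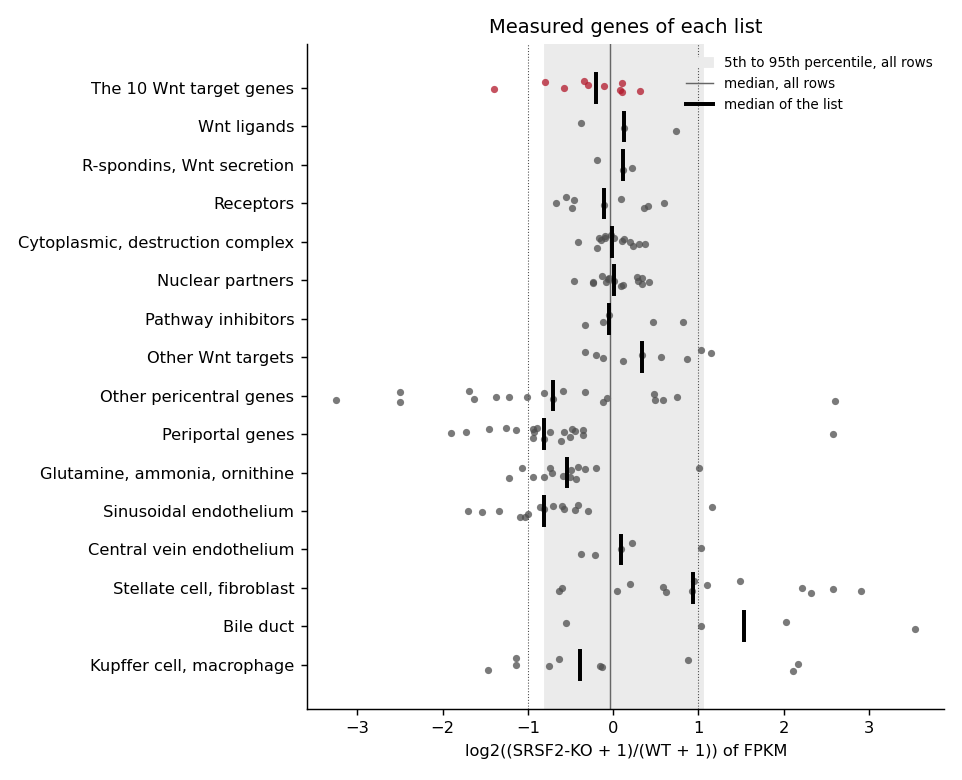
Log2 ratio, log2((SRSF2-KO + 1)/(WT + 1)) of FPKM (x axis), of every measured gene of each list, 1 point per gene, shifted at random in height. Thick bars are list medians, the grey band is the 5th to 95th percentile of all 11428 measured rows, the thin line their median and the dotted lines 2-fold. The signalling lists lie within 2-fold around 0, and the medians of other pericentral genes (-0.71) and periportal genes (-0.81) lie to the left.

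Of 19 measured pericentral genes outside the 10, 14 lay below 0, which is 73.7% beside 53.9% of all measured rows and 84.2% of those reaching 100 FPKM. The list held 12 genes at that level, 10 of them below 0. Of the 19, 8 were at least 2-fold lower, not all of them at 100 FPKM. The share was 3.22% of all measured rows and 12.2% of those reaching 100 FPKM. The median log2 ratio of the 19 was -0.71, beside -0.20 for the 10 genes. Cyp2c37 (18.1 against 181 FPKM, SRSF2-KO against WT) and Cyp2c54 (53.2 against 306 FPKM) were lowest, both cytochrome P450 genes of a family of close paralogs whose reads are hard to assign. Their paralogs Cyp2c29 (330 against 1871 FPKM) and Cyp2c50 (214 against 689 FPKM) were also at least 2-fold lower. So were Aldh1a1, which oxidises retinal (318 against 825 FPKM), Slc1a2, given above, and Nr1i3, the gene of the nuclear receptor CAR (30.1 against 61.9 FPKM). Por, the reductase that passes electrons to all microsomal P450 enzymes, Cyp2e1 among them, stood at 98.7 against 308 FPKM, a ratio of 0.321 (interval 0.311 to 0.330). In contrast Gstm3, a glutathione transferase gene with close paralogs, stood at 529 against 86.2 FPKM and its paralog Gstm1 at 2606 against 1556 FPKM. Gulo, an enzyme gene of vitamin C synthesis, stood at 192 against 202 FPKM.

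Of 19 measured genes of the opposite, periportal end of the lobule, 18 lay below 0, among them all 16 that reached 100 FPKM, and 5 were at least 2-fold lower, with a median log2 ratio of -0.81. Of all rows reaching 100 FPKM, 84.2% lay below 0 and 12.2% were at least 2-fold lower. Over all measured rows these shares were 53.9% and 3.22%. G6pc (34.7 against 133 FPKM) and Pck1 (280 against 927 FPKM), enzymes of gluconeogenesis, were lowest. The urea cycle gene Asl (109 against 299 FPKM), the serine dehydratase gene Sds (52.3 against 126.7 FPKM) and the histidine ammonia-lyase gene Hal (71.0 against 157.6 FPKM) were also at least 2-fold lower. The exception was Cdh1, the E-cadherin gene, at 31.5 against 4.43 FPKM, and Sdsl came next at 4.96 against 6.59 FPKM. A lower level in the library labelled SRSF2-KO was thus found at both ends of the lobule, as in most abundant rows. Whether the ends differed was not tested.

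Markers of other cell types differed alongside the 10 genes, and their part in these results was not tested. Over all measured rows 53.9% lay below 0, 3.22% were at least 2-fold lower and 5.49% at least 2-fold higher. For rows whose higher library held 1 to 10 FPKM these shares were 43.4%, 1.69% and 6.25%. They were 84.2%, 12.2% and 4.08% for rows reaching 100 FPKM. The 4 measured hepatocyte markers all lay below 0, with a median log2 ratio of -0.74, and summed to 11679 FPKM (library labelled SRSF2-KO) against 18038 FPKM (library labelled WT). Ttr, the transthyretin gene (2938 against 6190 FPKM), and Tat, the tyrosine aminotransferase gene (336 against 780 FPKM), were at least 2-fold lower, and Apoa1 (8305 against 10936 FPKM) and Hnf4a (100.1 against 133 FPKM) were not. The 15 sinusoidal endothelial markers were all measured and 14 lay below 0, with a summed level of 109 FPKM (library labelled SRSF2-KO) against 188 FPKM (library labelled WT). The 7 central vein markers, which include Wnt2, Wnt9b and Rspo3, summed to 11.4 against 8.80 FPKM, of which Vwf gave 4.25 against 1.57 FPKM. Vwf was the one at least 2-fold higher. Of the 5 central vein markers that were measured, 3 lay above 0 and 2 below, with a median log2 ratio of 0.095. The 14 stellate cell and fibroblast genes summed to 254 against 134 FPKM, 12 of them above 0. The 7 bile duct markers, of which 4 were measured and 3 of these lay above 0, summed to 279 against 26.4 FPKM, of which Spp1 gave 266 against 21.9 FPKM, and the 10 Kupffer cell and macrophage markers, 7 of them below 0, to 89.6 against 135 FPKM. Of these non-hepatocyte marker lists, 1 gene was at 0 in a library, Cftr in the library labelled WT.

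Within these marker lists some genes were far apart, and at least 2-fold again refers to the log2 ratio, with the shares of all rows as given above. Sinusoidal markers at least 2-fold lower were Oit3 (2.45 against 10.3 FPKM), Kdr (2.06 against 7.92 FPKM), Dnase1l3 (5.63 against 15.8 FPKM), Clec4g (21.1 against 46.0 FPKM) and Fcgr2b (13.7 against 29.1 FPKM). Stab1 was the one above 0 in that list, at 19.2 against 8.07 FPKM, and Eng came next at 21.1 against 26.0 FPKM. In the central vein list Cdh13 stood at 1.30 against 1.67 FPKM. Fibroblast genes at least 2-fold higher were Col1a1 (11.1 against 0.622 FPKM), Lum (23.8 against 3.15 FPKM), Col3a1 (16.7 against 2.55 FPKM), Col1a2 (11.2 against 1.64 FPKM), Pdgfrb (4.32 against 0.905 FPKM) and Vim (25.9 against 11.5 FPKM). Colec11 (8.28 against 13.5 FPKM) and Lrat (1.48 against 2.76 FPKM) were the 2 of the stellate cell and fibroblast list below 0. Of the bile duct markers, Cldn7 stood at 7.22 against 1.02 FPKM and Krt19 at 0.426 against 1.10 FPKM. The resident Kupffer cell markers Clec4f (18.3 against 41.5 FPKM), Timd4 (0.540 against 3.27 FPKM) and Cd5l (18.9 against 43.0 FPKM) were at least 2-fold lower, and the macrophage genes Trem2 (5.22 against 0.387 FPKM) and Gpnmb (3.38 against 0.0139 FPKM) at least 2-fold higher.

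**Figure D4:**
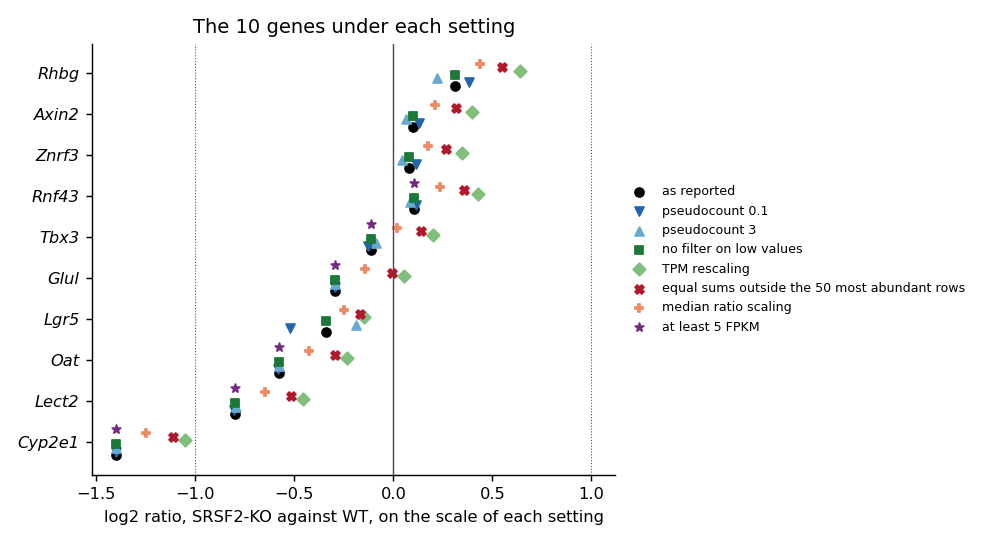
Log2 ratio, SRSF2-KO against WT (x axis), of each of the 10 genes under the reported setting and 7 alternatives (marker shapes), on the scale of each setting. The solid line is equality and the dotted lines 2-fold. Cyp2e1 stays left of the 2-fold line under all of them (-1.40 to -1.05), whereas Tbx3 and Glul cross equality.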

How the data were processed

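Liver RNA of BALB/c mice was sequenced as 1 library labelled WT and 1 labelled SRSF2-KO. The authors deposited 1 table of FPKM, already scaled for depth and transcript length; its columns sum to 523254 (SRSF2-KO) and 666262 (WT). Per the submitters' processing notes, Bowtie 0.12.2 and build mm9 were used. The FPKM program, annotation and strandedness were not given in the sources used here.

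Columns were assigned by name. The 11428 rows that reached 1 FPKM in either library were compared by log2 ratios with a pseudocount of 1; 18336 rows were 0 in both libraries. For a repeated symbol the row with the highest mean was used. Having 1 library per genotype, the comparison allowed no test. Depth was estimated from whole-read steps of low values (71.9% and 75.1% of values worth 1 to 3 reads came within 0.1 reads of a whole number) with GENCODE M21 transcript lengths, which belong to another build (GRCm38) and were also used, with blastn 2.17.0, to find overlapping genes and copies (at least 90% identity over at least 250 bases). Read counts behind intervals depend on the principal transcript's length. PCR copies are not independent molecules, so intervals cover counting error only. The scripts (Python 3.11.15, scipy 1.17.1) were tested on simulated data.

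The 10 genes and the 16 context lists (209 symbols, all in the table) were chosen with earlier results of these data known, and 3 further genes are not reported here. Genes outside the 10 were named as the 2 highest, the 2 lowest and those at least 2-fold apart in a list, plus pathway genes of known liver role. Alb, Axin1, Cftr, Gls2, Gulo, Lgr6, Lrp6, Myc, Rhag and Rhcg fall outside this rule and were named after their values were seen. Alternatives were pseudocounts, filters on low values and 3 rescalings.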

Additional observations from a re-analysis of the deposited data

How the results depend on the processing

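Cyp2e1 was at least 2-fold lower, and 0 of the 10 genes at least 2-fold higher, under each of the 7 alternatives (6 of the genes pass at 5 FPKM). The members' median (-0.20) was -0.44 over the 6 genes with at least 5 FPKM, -0.061 with median ratio scaling, and reversed to 0.065 when sums outside the 50 most abundant rows were made equal and to 0.13 after TPM rescaling. These rescalings moved the median of all rows from -0.04 to 0.09, 0.21 and 0.27, and relative to it the members' median stayed between -0.17 and -0.14. Glul reversed to 0.053 after TPM rescaling, and relative to all rows it stayed between -0.26 and -0.21 under these scalings. Over all rows, 368 were at least 2-fold lower and 627 higher. The counts were 227 and 1222 after TPM rescaling, 226 and 953 with equal sums, 279 and 778 with median ratio scaling, 551 and 1059 with a pseudocount of 0.1, and 242 and 314 with a pseudocount of 3.

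After TPM rescaling the medians were 0.22 for receptors, 0.31 for the destruction complex, 0.31 for nuclear partners, 0.21 for inhibitors, -0.36 for other pericentral genes, -0.46 for periportal genes, -0.20 for glutamine and ammonia genes, -0.39 for hepatocyte markers, -0.56 for sinusoidal endothelium, 1.32 for stellate cells, 1.99 for bile duct and -0.12 for macrophages. With equal sums they were 0.16 (receptors), 0.25 (destruction complex), -0.42 (other pericentral), -0.52 (periportal), -0.26 (glutamine and ammonia), -0.46 (hepatocyte), -0.58 (sinusoidal) and -0.17 (macrophages). With median ratio scaling they were 0.13 (destruction complex), -0.56 (other pericentral), -0.66 (periportal), -0.39 (glutamine and ammonia) and -0.59 (hepatocyte). At 5 FPKM they were -0.47 (receptors), -0.33 (inhibitors, 1 gene), -0.76 (other pericentral), -0.997 (sinusoidal) and 2.79 (bile duct, 2 genes). Without a filter they were -0.44 (glutamine and ammonia), -0.41 (hepatocyte) and 0.41 (bile duct). With pseudocounts of 0.1 and 3 the sinusoidal median was -0.95 and -0.59, and the bile duct median 2.03 and 1.02. The rescalings multiply every SRSF2-KO value by 1 factor by construction, and filters change which genes are counted. No paired analysis was possible because there is 1 library per genotype, and no library could be left out. Depth limits Lgr5, Rhbg, Axin2 and Znrf3 most, at 110 to 277 estimated reads.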

Other observations

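Axin1, the constitutive counterpart of Axin2, stood at 4.54 FPKM (library labelled SRSF2-KO) against 4.53 FPKM (library labelled WT), equal within a counting interval of 0.864 to 1.17. Rhag and Rhcg, relatives of Rhbg, were listed at 0 in both libraries.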
